A study of Homo sapiens with 24 samples.

Results

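LMF1, RGS1, WNK4, PDE9A and PITPNM3 are 5 of the 25559 genes counted in these libraries, selected on a lower fitted level in T-cell lines treated with azacitidine (AZA) than in the untreated libraries of the same set. The lines were HH, from a cutaneous T-cell lymphoma, PF382, from a T-cell acute lymphoblastic leukemia, and TLOm1, from an adult T-cell leukemia. Cells were left untreated or were given drug every 24 h over 96 h. HH received AZA at 50, 125 or 250 nM, whereas the AZA doses for PF382 and TLOm1 were 125, 250 and 500 nM. Decitabine doses were the same for the 3 lines, 5, 12.5 and 25 nM. AZA and decitabine are cytidine analogs that trap DNA methyltransferases once they are in DNA. Decitabine carries deoxyribose and enters DNA alone, whereas AZA carries ribose and enters RNA as well.

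There were 24 libraries, 1 for each condition, in an AZA set and a decitabine set of 12 libraries each, and every line had an untreated library in both sets. Totals ranged from 13892514 to 32496676 counts, and 3 counts, the limit that a count of 0 allows, were worth between 0.0923 and 0.216 CPM (counts scaled to a library total of 1e6). Intervals and that limit cover counting error only. Chi-square per degree of freedom between the untreated pair of a line was 25.1 to 36.2, well above sampling noise, so the pair was kept as separate samples. Of 12 T-cell markers, 9 in HH, 12 in PF382 and 5 in TLOm1 reached 1 CPM in both untreated libraries. CD7, CD8A and LCK stayed under 1 CPM in untreated HH, and CD3D, CD3G, CD5, CD7 and CD8A in untreated TLOm1. The dose ranges of AZA and decitabine do not match, so their values are given side by side without a comparison of the drugs.

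The 5 genes act in separate processes. LMF1 is an endoplasmic reticulum protein needed for the folding of lipoprotein lipase and related lipases. RGS1 speeds up GTP hydrolysis by G protein alpha subunits, which ends signals from chemokine receptors in lymphocytes. WNK4 is a kinase best known from the kidney, where the WNK kinases act through STK39 and OXSR1 on cation-chloride cotransporters. PDE9A breaks down cyclic GMP, and PITPNM3 belongs to a family of membrane-associated phosphatidylinositol transfer proteins.

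DNA methylation in vertebrates falls mainly on cytosines followed by guanine, so the upstream sequences are shown with each CG in capitals. Each is the 250 bases before the annotated start in RefSeq on GRCh38.p14, 5′ to 3′ on the strand of the gene. Entries were found for 3 of the 5 genes, LMF1, RGS1 and PITPNM3, and for LMF1 the first of its pair of listed start sites is printed.
LMF1, chr16:970985-971234, minus strand: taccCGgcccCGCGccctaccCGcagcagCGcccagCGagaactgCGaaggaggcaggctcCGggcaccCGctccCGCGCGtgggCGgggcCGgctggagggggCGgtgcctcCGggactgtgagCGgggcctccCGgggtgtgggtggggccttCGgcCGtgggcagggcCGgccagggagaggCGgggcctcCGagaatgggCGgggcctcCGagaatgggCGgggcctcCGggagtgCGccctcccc
RGS1, chr1:192575523-192575772, plus strand: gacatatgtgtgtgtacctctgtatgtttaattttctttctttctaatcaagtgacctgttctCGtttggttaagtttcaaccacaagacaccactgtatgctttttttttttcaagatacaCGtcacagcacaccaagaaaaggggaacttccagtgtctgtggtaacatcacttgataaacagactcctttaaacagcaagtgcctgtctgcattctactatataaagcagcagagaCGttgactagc
PITPNM3, chr17:6556556-6556805, minus strand: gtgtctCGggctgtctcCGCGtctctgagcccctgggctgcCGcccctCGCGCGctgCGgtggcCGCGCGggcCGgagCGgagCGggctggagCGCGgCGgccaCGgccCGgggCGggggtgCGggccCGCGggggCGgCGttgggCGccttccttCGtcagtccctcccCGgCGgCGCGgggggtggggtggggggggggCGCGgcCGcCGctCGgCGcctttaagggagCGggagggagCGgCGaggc

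The 3 windows differed widely in CG content. The RGS1 window held 3 CGs, and 22.9% of the 35116 windows in the table held fewer. The LMF1 window held 28, above 84.1% of windows, and the PITPNM3 window held 40, above 97.8%, where the median was 11. The letters GGGCGG, the core of the Sp1 motif, were searched on both strands and were found 4 times in the LMF1 window, 3 times in the PITPNM3 window and 0 times in the RGS1 window, against 42.6% of all windows with a match. The letters TGANTCA of the AP-1 motif occurred in 0 of these windows and in 6.57% of all.

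The values that chose the genes came from a fit of the 9 AZA libraries against the 3 untreated libraries of the AZA set, with line as a block. In this fit 51 of 16107 tested genes (0.317%) were called lower and 138 (0.857%) higher at an adjusted p under 0.05 by edgeR's quasi-likelihood test, and the 5 genes were among the 51 by their choice. The log2 fold changes were -1.91 (SE 0.40) for PDE9A, -1.39 (SE 0.20) for WNK4, -1.25 (SE 0.24) for RGS1, -1.19 (SE 0.13) for LMF1 and -0.85 (SE 0.18) for PITPNM3, beside a median over all tested genes of 0.01. Of the 51, 48 had a mean of at least 1 CPM and lay below the untreated library of the set in 9 of 9 AZA libraries. By size the 5 genes ranked 1, 2, 3, 4 and 10 among these 48, and GUCA1B, GPT, JAKMIP2 and TRAF1 ranked 5 to 8. For PDE9A, ranked 1, the 9 of 9 can be read in PF382 alone. Its AZA libraries held 0 counts in HH against 1 untreated, and 0 or 1 in TLOm1 against 2. PDE9A and PITPNM3 lay close to the threshold, both with an adjusted p of 0.0468. The lower genes nearest to it on the inside were LOC153469 at 0.0489 and KDM4C and SND1 at 0.0484, and on the outside MMP19 at 0.0518 and ZBTB2 and ZNF609 at 0.0556. Without the untreated TLOm1 library of the AZA set, 0 genes were called lower and the 5 fitted values lay between -0.80 and -1.86.

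**Figure D1:**
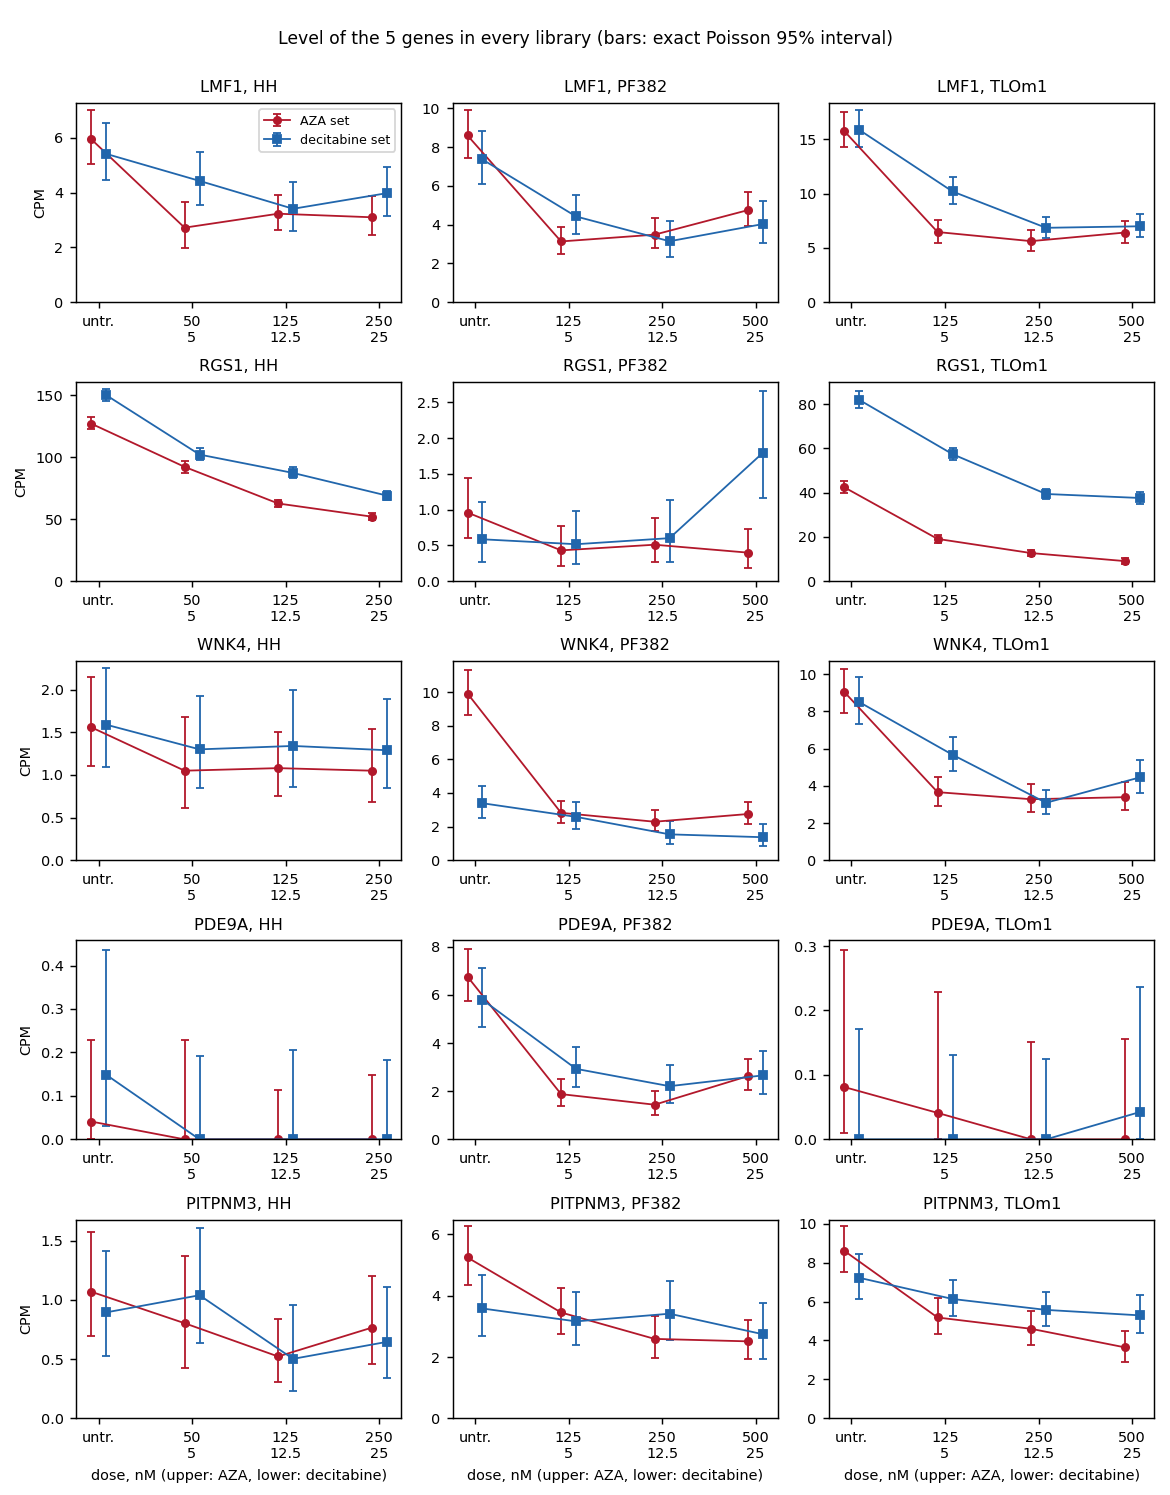
Level in CPM of each gene (rows) in each line (columns), with untreated cells and rising doses in nM on the horizontal axis, AZA set in red circles, decitabine set in blue squares, and exact Poisson 95% intervals as bars. LMF1 was already low at the lowest AZA dose, RGS1 went on falling with dose in HH and TLOm1, and PDE9A was measurable in PF382 alone.

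The order of the lines by untreated level was the same for LMF1 and PITPNM3 and another for RGS1. LMF1 ran from TLOm1 (15.8 and 15.9 CPM in the AZA and decitabine sets) through PF382 (8.60 and 7.36) to HH (5.96 and 5.42), and RGS1 from HH (127 and 150) through TLOm1 (42.5 and 82.0) to PF382 (0.960 and 0.586). PITPNM3 ran from TLOm1 (8.61 and 7.22) through PF382 (5.24 and 3.58) to HH (1.07 and 0.895). For these 3 genes neither set's libraries of one line overlapped those of the next. For WNK4, TLOm1 (9.06 and 8.51) lay within the range of PF382 (9.91 and 3.39), so that pair has no order, and HH (1.56 and 1.59) was below both.

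LMF1 was lower than both untreated libraries of its line in 9 of 9 AZA libraries and in 9 of 9 decitabine libraries. For all 5 genes, such AZA counts against the untreated library of the AZA set reflect how the genes were chosen. The share of all genes below both untreated libraries is not given here. In HH the LMF1 level was 5.96 CPM untreated in the AZA set, and 2.72, 3.23 and 3.10 CPM at 50, 125 and 250 nM AZA. PF382 had 8.60 CPM of LMF1 untreated, and 3.13, 3.48 and 4.75 CPM at 125, 250 and 500 nM. TLOm1 had the highest level, 15.8 CPM, and 6.46, 5.62 and 6.41 CPM with AZA. The AZA libraries did not overlap the untreated ones in any line, which for the AZA set follows in part from the choice of the gene. The level was already low at the lowest dose given, and in PF382 it rose at each step from there.

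The LMF1 level was also lower with decitabine. HH went from 5.42 CPM untreated in the decitabine set to 4.43, 3.41 and 3.98 CPM at 5, 12.5 and 25 nM. PF382 went from 7.36 to 4.42, 3.14 and 4.03 CPM, and TLOm1 from 15.9 to 10.2, 6.85 and 6.99 CPM. The lowest level stood at 12.5 nM in all 3 lines, but its interval overlapped that at 25 nM in each. Over its 3 doses pooled, the ratio to the untreated library of the set was 0.516 (95% interval 0.417 to 0.640) in HH, 0.441 (0.366 to 0.531) in PF382 and 0.390 (0.339 to 0.447) in TLOm1 with AZA. With decitabine it was 0.729 (0.578 to 0.925), 0.528 (0.415 to 0.675) and 0.506 (0.443 to 0.578). The untreated levels themselves differed little between the sets, by a ratio of 0.856 to 1.01 with every interval including 1.

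RGS1 was readily measured in HH and TLOm1 and gave few counts in PF382. With AZA in HH it went from 127 CPM untreated to 92.1, 62.6 and 52.0 CPM at 50, 125 and 250 nM. In TLOm1 it went from 42.5 CPM to 19.1, 12.7 and 9.08 CPM at 125, 250 and 500 nM. In both lines every step up in dose brought a lower level. PF382 gave 22 counts of RGS1 untreated and 11, 12 and 10 counts with AZA, or 0.960 CPM against 0.399 to 0.510 CPM, too few for an order among the doses.

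With decitabine, RGS1 in HH fell at each step from 150 CPM to 102, 87.2 and 69.0 CPM. TLOm1 likewise fell from 82.0 CPM to 57.4, 39.4 and 37.6 CPM. PF382 went the other way at the highest dose, with 9 counts untreated, 9 and 9 counts at 5 and 12.5 nM, and 25 counts at 25 nM, or 0.586 CPM against 1.80 CPM. The ratio of that library to its untreated library had an interval above 1, but it rests on 25 counts against 9.

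The TLOm1 values of RGS1 depended on the untreated library used. The untreated level of the decitabine set was 1.93 times that of the AZA set (95% interval 1.79 to 2.09), and in HH it was 1.18 times as high (1.12 to 1.24). The level at 5 nM decitabine in TLOm1, 57.4 CPM, was thus below one untreated library and above the other. Pooled over doses, decitabine gave a ratio of 0.549 (0.519 to 0.582) in TLOm1 against its own set and 1.06 (0.991 to 1.14) against the untreated library of the AZA set. The AZA libraries were below both, at 0.322 (0.295 to 0.352) and 0.167 (0.154 to 0.18). Across lines, RGS1 was below both untreated libraries in 9 of 9 AZA and 6 of 9 decitabine libraries.

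WNK4 was lower than both untreated libraries in 9 of 9 libraries with either drug. In TLOm1 it went from 9.06 CPM to 3.66, 3.28 and 3.39 CPM with AZA, and from 8.51 CPM to 5.67, 3.09 and 4.45 CPM with decitabine. HH held little WNK4, 1.56 CPM untreated and 1.05, 1.08 and 1.05 CPM with AZA. With decitabine HH had 1.59 CPM untreated and 1.30, 1.34 and 1.29 CPM treated. The HH differences were in 1 direction in all 6 treated libraries, but the pooled ratios, 0.679 (0.455 to 1.03) for AZA and 0.824 (0.538 to 1.29) for decitabine, had intervals that included 1.

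The WNK4 ratio of PF382 with AZA depended on the untreated library used. The level was 9.91 CPM untreated in the AZA set and 2.82, 2.29 and 2.75 CPM with AZA, a pooled ratio of 0.265 (0.218 to 0.323). In the decitabine set the untreated library held only 3.39 CPM, 0.342 times as much (0.248 to 0.464), and treated libraries 2.58, 1.54 and 1.37 CPM. Against that library the AZA ratio in PF382 was 0.776 (0.569 to 1.08). In TLOm1 the untreated libraries differed little, and the AZA ratio was 0.380 (0.316 to 0.458) against one and 0.405 (0.333 to 0.492) against the other. WNK4 shares bases with COA3 on the opposite strand in GENCODE. Whether the counting used strand is not given in the sources used here, so reads in the shared stretch cannot be assigned with certainty. COA3, listed under its older name CCDC56, did not pass the test with AZA, at a log2 fold change of 0.33 (SE 0.13, adjusted p = 0.172).

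PDE9A was measured in PF382 alone. That line had 155 counts (6.76 CPM) untreated in the AZA set and 48, 34 and 66 counts (1.88, 1.44 and 2.63 CPM) at 125, 250 and 500 nM AZA. The decitabine set had 89 counts (5.80 CPM) untreated and 51, 33 and 37 counts (2.93, 2.21 and 2.66 CPM) treated. The pooled ratio was 0.295 (0.234 to 0.372) with AZA and 0.451 (0.340 to 0.600) with decitabine. Against the untreated library of the other set the ratios were 0.344 (0.263 to 0.453) and 0.387 (0.302 to 0.494). HH and TLOm1 never exceeded 3 counts in any of their 16 libraries, so no fold is given there, and the fitted change of PDE9A over all lines is in effect that of PF382. The level at 250 nM AZA was the lowest and that at 500 nM the highest of the 3 AZA doses.

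PF382 is also the line with the markers of a precursor T cell. All 6 of CD1A, CD1B, DNTT, PTCRA, RAG1 and RAG2 reached 1 CPM there, with a sum of 1700 to 1840 CPM in untreated and 923 to 1690 CPM in treated libraries. The sum of 4 epithelial markers moved up with treatment, in PF382 from 3.58 to 5.06 CPM untreated to 12.2 to 46.0 CPM treated, and in TLOm1 from 48.7 to 81.4 CPM to 85.2 to 153 CPM, while EPCAM stayed under 1 CPM in the untreated libraries of both. In HH that sum overlapped, at 0.497 to 0.823 CPM untreated and 0.156 to 2.66 CPM treated. Fibroblast markers in TLOm1 summed to 0.284 to 0.555 CPM untreated and 0.424 to 20.6 CPM treated. Myeloid markers in HH summed to 2.63 to 4.48 CPM untreated and 1.89 to 2.35 CPM treated. B-cell markers summed to 10.6 to 11.7 CPM untreated and 17.6 to 26.6 CPM treated in PF382, and to 1.81 to 1.89 and 1.92 to 4.32 CPM in HH. In TLOm1 the B-cell sum was lower with treatment, at 0.691 to 0.694 CPM untreated and 0.246 to 0.635 CPM treated. Of the markers of activated T cells and adult T-cell leukemia, the sum in PF382 was 5.21 to 5.67 CPM untreated and 2.11 to 5.18 CPM treated. Their part in the values of the 5 genes was not tested.

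PITPNM3 had the smallest change of the 5. With AZA in TLOm1 it went from 8.61 CPM to 5.18, 4.6 and 3.65 CPM at 125, 250 and 500 nM, and in PF382 from 5.24 CPM to 3.45, 2.59 and 2.51 CPM. HH held 26 counts untreated and 13, 17 and 19 counts with AZA, or 1.07 CPM against 0.804, 0.523 and 0.766 CPM. The level fell at each dose step in TLOm1 and PF382 but not in HH. Intervals of neighbouring doses overlapped in every line, as at 250 and 500 nM in PF382 (1.98 to 3.33 and 1.93 to 3.21 CPM).

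The decitabine values of PITPNM3 were as follows. TLOm1 went from 7.22 CPM to 6.13, 5.57 and 5.29 CPM, a pooled ratio of 0.787 (0.655 to 0.95). PF382 went from 3.58 CPM to 3.16, 3.41 and 2.74 CPM, and HH from 0.895 CPM to 1.04, 0.503 and 0.646 CPM, and neither pooled interval excluded 1. The AZA libraries of PF382 were also closer to the untreated library of the decitabine set, at a ratio of 0.798 (0.591 to 1.09), than to that of their own, at 0.546 (0.434 to 0.689). PITPNM3 overlaps PIMREG on the opposite strand, listed as FAM64A, which changed by 0.15 (SE 0.14, log2, adjusted p = 0.575) with AZA.

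**Figure D2:**
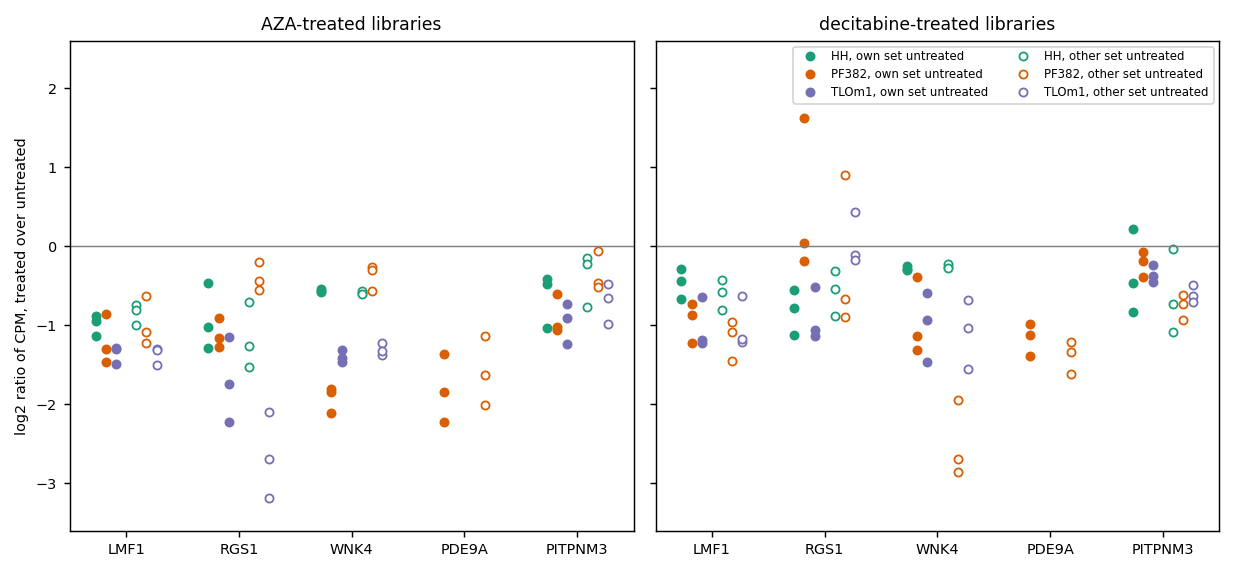
Log2 ratio of CPM of each treated library to the untreated library of its line, for AZA (left) and decitabine (right), with filled points against the untreated library of the same set and open points against that of the other set, 3 doses per line. With AZA all points lie below 0, where the filled ones reflect the choice of the genes. The open and filled points part most for WNK4 in PF382 and RGS1 in TLOm1. PDE9A is shown for PF382 only.

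The 5 genes differed in how many treated libraries had intervals below 1 against both untreated libraries of their line. Such a number depends on the counts of a gene as well as on the size of its change. PDE9A, with at most 3 counts in any HH or TLOm1 library, could reach it in PF382 alone. The share of all genes with such intervals is not given here. For LMF1, all 9 of its AZA ratios to either library had an interval below 1, and so did 8 of 9 with decitabine. For RGS1 this held in 6 of 9 AZA and 4 of 9 decitabine libraries, for WNK4 in 3 and 5, for PDE9A in 3 and 3, and for PITPNM3 in 3 and 2. The ratios compare single libraries, and the spread between separate cultures is not in their intervals. The AZA ratios to the untreated libraries of the AZA set also reflect the choice of the genes.

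The decitabine libraries played no part in the rule that chose the genes, but earlier results of these data were known at that choice. All 5 fitted log2 changes of the 9 decitabine libraries against the 3 untreated libraries of that set were below 0, at -1.40 (SE 0.52) for PDE9A, -0.82 (SE 0.17) for LMF1, -0.77 (SE 0.21) for RGS1, -0.76 (SE 0.23) for WNK4 and -0.30 (SE 0.19) for PITPNM3. None passed the test, and neither did any of the 15892 tested genes (0% called lower and 0% higher by edgeR), while 974 were lower and 1518 higher before adjustment (p under 0.05). With DESeq2, 174 genes were lower and 295 higher, and with limma's voom 6 and 7. The adjusted p was 0.13 for LMF1, 0.152 for RGS1, 0.176 for WNK4, 0.233 for PDE9A and 0.456 for PITPNM3. By p, LMF1 ranked 28 among all tested genes and PITPNM3 4863. Over all tested genes the median was 0.02, and 44.4% lay below 0.

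**Figure D3:**
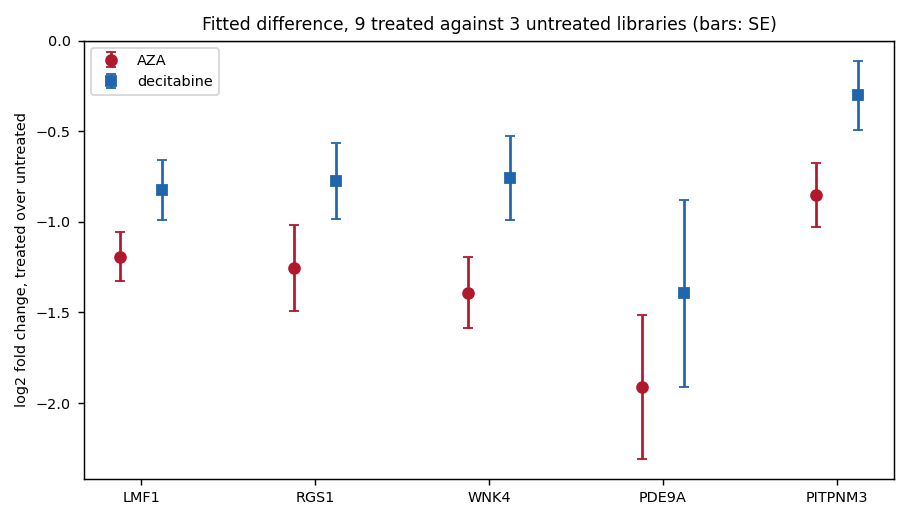
Fitted log2 fold change of treated over untreated libraries for each gene, AZA in red circles and decitabine in blue squares, with SE as bars, from 9 treated and 3 untreated libraries per drug. All 10 values lie below 0, from -1.91 for PDE9A with AZA to -0.30 for PITPNM3 with decitabine. The AZA values chose the genes.

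Whether the decitabine effect differed between lines was tested with the line by treatment terms, in which 0 of the 5 genes and 0% of the 15892 tested genes passed with edgeR, against 1442 at an unadjusted p under 0.05 and 123 with DESeq2. Each line has 1 untreated library in this test. The fitted log2 effects of RGS1 were -0.83, 0.64 and -0.87 for HH, PF382 and TLOm1, with an adjusted p of 0.78. LMF1 had -0.49, -0.95 and -0.98 (adjusted p = 0.798) and WNK4 -0.31, -0.90 and -0.95 (adjusted p = 0.838). PITPNM3 had effects of -0.32, -0.23 and -0.35 in the same order. The PDE9A effect could be read in PF382 alone, at -1.18.

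The dose slopes compare the treated libraries with each other and leave the untreated ones out. RGS1 fell with AZA dose, by 0.41 on the log2 scale for each doubling (SE 0.05, edgeR adjusted p = 0.00194), and was the 1 gene of the 5 that passed, beside 6.17% of 15932 tested genes called lower and 7.55% called higher. It passed in 14 of 14 alternatives, with slopes from -0.47 to -0.36. PITPNM3 had an AZA slope of -0.21 (SE 0.10, adjusted p = 0.208) that did not pass. LMF1 had 0.11 (SE 0.08), WNK4 -0.04 (SE 0.09) and PDE9A 0.19 (SE 0.25), with adjusted p of 0.411, 0.82 and 0.654. The 9 AZA libraries also entered the choice of the genes, but through their distance from the untreated libraries.

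With decitabine, 0 of the 5 slopes passed, beside 0.791% of 15677 tested genes called lower and 2.18% called higher. The log2 slopes per doubling were -0.22 (SE 0.08) for RGS1, -0.21 (SE 0.12) for WNK4, -0.16 (SE 0.08) for LMF1, -0.15 (SE 0.10) for PITPNM3 and -0.05 (SE 0.24) for PDE9A, with adjusted p between 0.198 and 0.934. The RGS1 slope held the rise in PF382 at 25 nM. Counted by line, the level fell at each dose step in 4 of 15 gene and line pairs with AZA and in 4 of 15 with decitabine, and RGS1 in HH and in TLOm1 was among them with both drugs. A rise at each step was seen in 1 of 15 with each drug, for LMF1 in PF382 with AZA and RGS1 in PF382 with decitabine. The 15 include pairs with few counts, namely PDE9A in HH and TLOm1 and RGS1 in PF382.

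**Figure D4:**
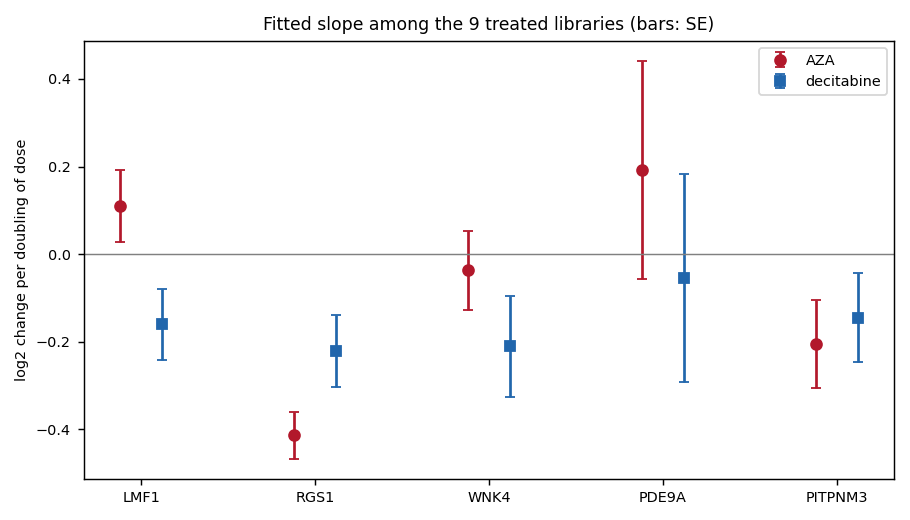
Fitted log2 change per doubling of the dose among the 9 treated libraries of each drug, AZA in red circles and decitabine in blue squares, with SE as bars. The RGS1 slope with AZA, -0.41, is the 1 value past the threshold, while the AZA slopes of LMF1 and PDE9A lie above 0.

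Relatives and pathway partners of the 5 genes were counted in the same fits. With AZA, 0 of 68 other tested genes in the 5 lists below were called lower (0.317% of all) and 0 higher (0.857% of all), and with decitabine again 0. In the dose slopes, 4 of 67 were called lower and 6 higher with AZA (6.17% and 7.55% of all). For lipase maturation, the 6 other tested genes, LMF2 among them, had a median log2 change of 0.16 with AZA, and all 6 lay above 0. LMF2, the close relative of LMF1, had 0.44 (SE 0.13), and the endoplasmic reticulum chaperones CALR and CANX had 0.16 and 0.11. LMF2 rose with AZA dose, by a slope of 0.17 (SE 0.04, adjusted p = 0.0311).

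Among the other RGS proteins, 11 were tested and their median was 0.05 with AZA. RGS2, the second tested gene after RGS1 on chromosome 1, had -0.34 (SE 0.15, adjusted p = 0.215), RGS9 had 0.60 (SE 0.16) and RGS12 had 0.98 (SE 0.30). RGS12 rose with AZA dose, with a slope of 0.38 (SE 0.09, adjusted p = 0.0199), the opposite direction to RGS1. RGS18, another neighbour of RGS1, had -0.15 (SE 0.24).

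The WNK list held 15 other tested genes with a median of -0.04. WNK1 had -0.07 (SE 0.05) with AZA, STK39 had -0.07 (SE 0.08) and OXSR1 -0.24 (SE 0.07, adjusted p = 0.125). OXSR1, the cotransporter SLC12A2 and CUL3, a ubiquitin ligase scaffold that acts on WNK kinases, fell with AZA dose, by 0.11, 0.16 and 0.09 per doubling, and the cotransporter SLC12A4 rose by 0.12. The cotransporter SLC12A3 rose with decitabine dose, by 1.39 (SE 0.26), and WNK2 fell by 0.38 (SE 0.09). WNK2 was readily measured in PF382 alone, at 57.6 to 106 CPM with decitabine, against at most 0.0559 in HH and 0.201 in TLOm1. SLC12A3 was at or under 0.131 CPM in the untreated libraries of the AZA set, within the limit of 3 counts, and its fitted AZA change of 5.37 (SE 1.35), which depends on the prior count, did not pass the test.

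For cyclic nucleotide phosphodiesterases and cGMP signaling, 22 other genes were tested with AZA, with a median of 0.04. PDE7A had -0.17 (SE 0.05), PDE6B -0.58 (SE 0.18) and PDE6D -0.39 (SE 0.12), with adjusted p of 0.0986, 0.115 and 0.117. PDE10A and PDE11A rose with AZA dose, by 0.89 (SE 0.22) and 1.11 (SE 0.17), and PDE11A also with decitabine dose, by 1.5 (SE 0.25). These slopes rest on low levels. With AZA, PDE10A reached at most 0.242 CPM in HH, 0.509 in TLOm1 and 1.6 in PF382. PDE11A reached at most 0.161 CPM in HH, 2.35 in PF382 and 3.73 in TLOm1. PDE9A itself had no such slope.

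The 14 other genes of phosphatidylinositol transfer had a median of 0.03 with AZA. PITPNA, a soluble phosphatidylinositol transfer protein, had 0.45 (SE 0.11, adjusted p = 0.075), CDIPT, which makes phosphatidylinositol, had 0.20 (SE 0.09), and ESYT2, a tether between the endoplasmic reticulum and the plasma membrane, had 0.23 (SE 0.17). PITPNB fell with AZA dose by 0.10 and ESYT2 rose by 0.23 per doubling.

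**Figure D5:**
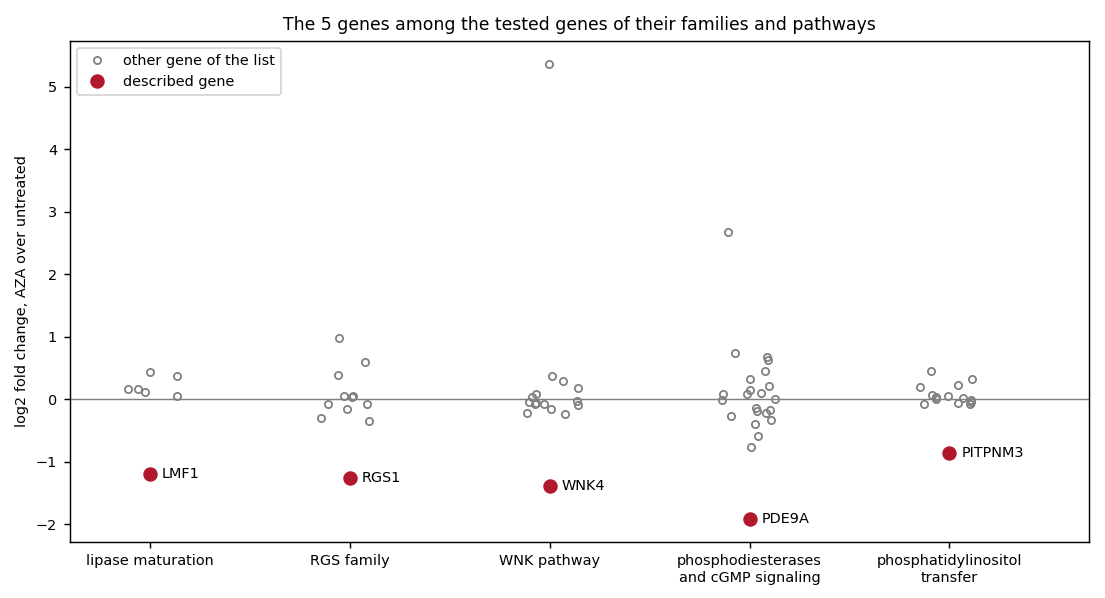
Fitted log2 fold change of AZA over untreated libraries for the tested genes of 5 families or pathways, with the described gene of each in red and the others as open grey circles. The other genes centre near 0, with medians from -0.04 to 0.16, apart from SLC12A3 at the top, which had at most 3 counts in the untreated libraries of the AZA set, and the described gene is the lowest of its list, as it was chosen to be low.

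The genes beside the 5 on their chromosomes were looked at in the same fits. Of 30 neighbours, 3 on each side of a gene in the reference order, 0 were called with AZA, where the background was 0.317% lower and 0.857% higher, and 0 of the 29 tested with decitabine. Their log2 changes with AZA ran from -0.63 for SLC37A1, next to PDE9A on chromosome 21, to 1.70 for PLA2G4A, near RGS1, with a median of 0.04.

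The genes whose levels followed the 5 most closely were found by Pearson's r over the 24 libraries on log2(CPM + 1), centred on each line, among 13942 genes with a mean of at least 1 CPM. These are descriptions over libraries that share lines and sets. LMF1, on chromosome 16, and WNK4, on chromosome 17, were among each other's closest 3, with r = 0.837. Both were chosen as low in the AZA libraries, which are among the 24, so this r follows in part from that choice. GPHN (r = 0.862), the gephyrin gene, and DENND1A (0.861) stood closest to LMF1, and GAA (0.890), lysosomal alpha-glucosidase, and CCDC57 (0.878) to WNK4.

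RGS1 was followed by ARHGAP19 (r = 0.969), CPNE5 (0.924) and MYO3B (0.909). PDE9A was followed by BCL11A (0.921), a transcription factor of early lymphoid cells, SYNDIG1 (0.869) and ARPP21 (0.869). With at most 3 counts of PDE9A in any HH or TLOm1 library, its r rests in effect on PF382. PITPNM3 was followed by INTS9 (0.884), a subunit of the Integrator complex, NIPSNAP1 (0.872) and MRRF (0.839). Among the 5 themselves r ran from 0.111, between RGS1 and PDE9A, to 0.837. RGS1 gave few counts in PF382, the line where PDE9A was measured, so the r of that pair says little. All r among the 5 follow in part from their choice. INTS9, GPHN and DENND1A were also called lower with AZA (0.317% of all tested genes were), at -0.45 (SE 0.08), -0.53 (SE 0.11) and -0.43 (SE 0.06). They were picked for following genes chosen as low with AZA, over the same libraries, so these calls follow in part from that choice.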

How the data were processed

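RNA of 24 libraries from the cell lines HH, PF382 and TLOm1 was sequenced. The files deposited by the authors hold raw counts of reads for 25559 genes. The build GRCh37.p2 and the tools limma, STAR and DESeq2 appear in the submitters' processing notes, with neither role nor version. Counter, annotation and strand setting: not given in the sources used here. In the labels the RNA is polyA, while the protocol describes rRNA-depleted total RNA and a stranded mRNA kit, and this was not settled. The AZA and decitabine sets were told apart by the prefix of the titles, of which 2 write PF382 as PF82. The paper describes other libraries and gave no values.

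Counts were tested with edgeR 4.0.16 in R 4.3.3 (TMM, filterByExpr with a minimum count of 10 and a minimum total of 15, robust quasi-likelihood F test, line as a block), with Benjamini-Hochberg adjustment over all tested genes and a threshold of 0.05. Slopes were fitted on log2 dose in the treated libraries alone. Treated libraries of a drug span 3 lines at 3 doses, and nothing in the labels says that they came from separate cultures, so p-values measure the spread between these libraries, which may be technical. SEs were the log2 fold change divided by the root of F. CPM on library totals had exact Poisson, and ratios of CPM exact conditional binomial, 95% intervals (SciPy 1.17.1). Total counts per library set the precision, since 3 counts were worth 0.0923 to 0.216 CPM. Alternatives were other size factors, no filter, DESeq2 1.42.0, voom of limma 3.58.1, both untreated libraries per line, each library left out, and dose rank. The scripts were tested on simulated data.

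The 5 genes, the lists and the tests were chosen with earlier results of these data known. Named genes were the 5, up to 3 others per list with the smallest p with AZA, called neighbours, and the 3 most alike to each, passing over LOC identifiers. List members called in a slope, WNK1, STK39, RGS18, the largest decreases, genes at the threshold, overlapping genes and the extreme neighbours were named after their values were seen. Results that need some of the listed genes are not reported here. Promoter windows and the gene order came from RefSeq (GRCh38.p14), of which no gene coordinates are used with the files, and overlaps from GENCODE release 29.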

Additional observations from a re-analysis of the deposited data

How the results depend on the processing

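The direction of the 5 genes against untreated libraries held with either drug under every alternative in which they were tested, but their calls with AZA did not. With AZA, most alternatives reuse the libraries that chose the genes. Their direction and calls there follow in part from that choice and are no separate support. PDE9A was not among the genes tested with both untreated libraries. Among refits of single genes with AZA, 56 stayed past the threshold and 33 did not. All 5 passed with DESeq2 and with voom, and so did the 4 tested with both untreated libraries. With those of the other set alone, an alternative chosen after seeing the data, 4 passed and PITPNM3 did not. Without a filter on low counts 3 passed. Leaving out 1 library at a time gave 0 to 5 genes, 0 to 59 genes called lower and 1 to 204 higher over all tested, the lowest without the untreated TLOm1 library. DESeq2 called 375 lower and 740 higher, voom 176 and 267, both untreated libraries 1184 and 1768, and those of the other set 2447 and 2956. The other untreated libraries also moved the fitted value of RGS1 from -1.25 to -1.78, of WNK4 from -1.39 to -0.78 and of PITPNM3 from -0.85 to -0.46 (adjusted p = 0.0899). The cause was not tested.

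With decitabine, 1 of the 5 genes passed with DESeq2 (174 genes lower and 295 higher in all), 0 with voom (6 and 7), 3 of the 4 tested with both untreated libraries (1049 and 747) and 4 with those of the other set (2486 and 2524). Leaving out a library gave 0 to 2 genes lower and 0 to 7 higher. For the line difference, 1 gene was called without a filter, 123 with DESeq2 and 0 to 150 with a library left out, the highest without PF382 at 5 nM. AZA slopes called 375 to 1016 genes lower and 624 to 1295 higher with a library left out, the lowest without TLOm1 at 125 nM. Decitabine slopes called 297 and 541 without a filter, 259 lower with DESeq2, 211 and 550 with voom, and 37 to 258 lower and 191 to 504 higher with a library left out. RGS1 alone passed there, with voom and without PF382 at 25 nM (1 of the 5 genes in each, otherwise 0). The PDE9A slope turned to -0.018 with AZA and 0.043 with decitabine in DESeq2, and ran from -0.48 to 0.55 and from -0.15 to 0.40 with a library left out.

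Line was a block in every fit, and no further pairing was possible because each condition has 1 library and the labels give no replicate numbers. Depth limits PDE9A in HH and TLOm1 and RGS1 in PF382, where no fold or order of doses can be read.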

Other observations

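After the described genes, the next by size with AZA, among the 48 called lower that averaged 1 CPM or more and lay below the untreated library in 9 of 9, were GUCA1B, GPT, JAKMIP2 and TRAF1, an adaptor of TNF receptor signaling. Their fitted log2 changes with AZA, which ranked them, were -1.01 (SE 0.21), -0.99 (SE 0.18), -0.92 (SE 0.17) and -0.91 (SE 0.13). With decitabine none of them passed the edgeR test, at -0.41 (SE 0.32) for GUCA1B, -0.49 (SE 0.22) for GPT, -0.57 (SE 0.14) for JAKMIP2 and -0.61 (SE 0.18) for TRAF1. JAKMIP2 fell with AZA dose among the treated libraries, by 0.31 per doubling (SE 0.05, edgeR adjusted p = 0.00379), while GPT had a slope of -0.02 (SE 0.10).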
